A study of Mus musculus with 6 samples.

Results

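Angiogenin-4 and its relatives in the ribonuclease A family were examined in mouse Paneth cells, which lie at the bottom of small intestinal crypts and secrete antimicrobial proteins. The 4 genes Ang4, Ang, Rnase1 and Rnase4 were taken by name from the raw count table, out of 55414 gene identifiers, and all 4 passed the filter on low counts. The table held 6 RNA-seq libraries of Paneth cells that were sorted by FACS from wild-type mice. In the St_TNF group (3 libraries) the mice ate standard chow, and in the ZincDef_TNF group (3 libraries) they ate zinc depleted chow, in both cases for 7 weeks. Every mouse of both groups also received TNF, a cytokine that drives inflammation, 3 hours before sampling, so no library shows the cells without TNF. The study's methods name C57BL/6J as the strain and describe samples from individual mice. The age of the mice is not given in the sources used here. The design text speaks of 4 replicates per group, while the labels list 3.

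Members of the ribonuclease A family are small secreted enzymes that cut RNA and are held in shape by disulfide bridges. Several of them kill or restrain microbes, and the angiogenins among them were named for a role in the growth of blood vessels. Ang4 encodes a bactericidal angiogenin that mouse Paneth cells store in their granules and release into the crypt. Ang encodes angiogenin, which is made in many tissues. Rnase1 encodes the family's pancreatic-type enzyme, which degrades RNA outside cells, and Rnase4 encodes a widely expressed member whose gene lies next to Ang.

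The family is recognised by a short signature in the protein, in which cysteine and lysine are followed by any pair of residues and then by asparagine, threonine and phenylalanine. The stretches that encode it are shown because they let a reader see how close Ang4 is to its relatives, which bears on whether reads can be told apart. They were read from GRCm39 with the GENCODE M39 coding models, 5′ to 3′ on the coding strand. Each is 51 bases long, with the signature codons in capitals and 5 codons to either side in lower case.
Ang4: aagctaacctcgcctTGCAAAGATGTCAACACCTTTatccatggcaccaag
Ang: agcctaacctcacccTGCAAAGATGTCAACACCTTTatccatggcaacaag
Ang2: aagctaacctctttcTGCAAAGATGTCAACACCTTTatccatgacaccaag
Ang5: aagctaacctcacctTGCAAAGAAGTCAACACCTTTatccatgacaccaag
Ang6: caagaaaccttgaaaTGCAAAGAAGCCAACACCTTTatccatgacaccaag
Rnase4: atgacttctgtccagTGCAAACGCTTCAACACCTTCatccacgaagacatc
Rnase1: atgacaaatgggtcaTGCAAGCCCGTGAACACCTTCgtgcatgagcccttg
The signature starts at codon 62 in Ang4, 63 in Ang, 68 in Rnase4 and 65 in Rnase1. The stretches lie on chromosome 14 at chr14:52001728-52001778 (Ang4, minus strand), chr14:51339032-51339082 (Ang, plus strand), chr14:51342464-51342514 (Rnase4, plus strand) and chr14:51383125-51383175 (Rnase1, minus strand). The capitals are the same in Ang4, Ang and Ang2, while those of Rnase4 and Rnase1 differ from them.

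The last 300 coding bases of Ang4 and Ang, before the stop codon, are given next, since these are the pair whose names are most easily confused and whose levels were furthest apart. Capitals mark the bases that differ between them, which are 43 of 300 in Ang4 (chr14:52001515-52001814, minus strand) and in Ang (chr14:51338996-51339295, plus strand).
Ang4: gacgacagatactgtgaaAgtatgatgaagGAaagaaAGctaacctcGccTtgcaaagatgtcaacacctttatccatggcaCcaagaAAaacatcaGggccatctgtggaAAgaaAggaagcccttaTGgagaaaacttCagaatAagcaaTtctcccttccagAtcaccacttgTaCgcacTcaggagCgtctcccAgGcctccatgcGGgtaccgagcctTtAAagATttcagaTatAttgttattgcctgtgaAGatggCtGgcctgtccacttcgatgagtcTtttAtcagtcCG
Ang: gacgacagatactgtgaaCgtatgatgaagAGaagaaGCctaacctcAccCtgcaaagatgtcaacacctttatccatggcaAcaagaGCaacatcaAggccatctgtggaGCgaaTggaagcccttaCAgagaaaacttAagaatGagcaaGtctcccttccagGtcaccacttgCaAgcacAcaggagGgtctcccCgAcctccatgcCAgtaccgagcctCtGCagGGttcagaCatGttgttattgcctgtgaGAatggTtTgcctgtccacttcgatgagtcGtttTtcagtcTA
The differences are spread along the sequence, and in the whole coding sequences the longest run shared by both is 31 bases. Ang4 and Ang had 85.4% of their aligned bases and 74.3% of their aligned residues in common. Ang4 was closer to Ang2 (79.9% of residues) and Ang5 (78.5%), and the longest run that Ang4 shares with Ang5 is 79 bases. It was further from Rnase4 (44.8%) and Rnase1 (40.3%).

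The exon structure of the 4 genes decides which reads can be counted for each. Of the 75-base stretches of the canonical Ang4 transcript (715 bases), 99.2% occur in no other gene's transcript, and the remainder are shared with Ang5. For Rnase1 (997 bases) all of them are specific. Ang and Rnase4, in contrast, use the same upstream exons: 1387 exon bases belong to both genes, which is 35.4% of the exon bases of Ang and 49.4% of those of Rnase4. In the canonical transcripts of Ang (3442 bases) and Rnase4 (2555 bases) the shared exon is 1210 bases long, and 66.2% and 54.2% of the 75-base stretches are specific. How the counting program treated reads in shared exons is not given in the sources used here. A read in them cannot be told apart between Ang and Rnase4, and levels of these 2 genes per length are therefore given with some doubt. Another Ang4 transcript ends in an exon that overlaps the antisense pseudogene Ear-ps3 by 245 bases, and Ear-ps3 had 0 counts in all 6 libraries. Ang4 exons also overlap Gm63604 on the opposite strand by 248 bases. Gm63604 was not in the count table, so its counts are not known.

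**Figure D1:**
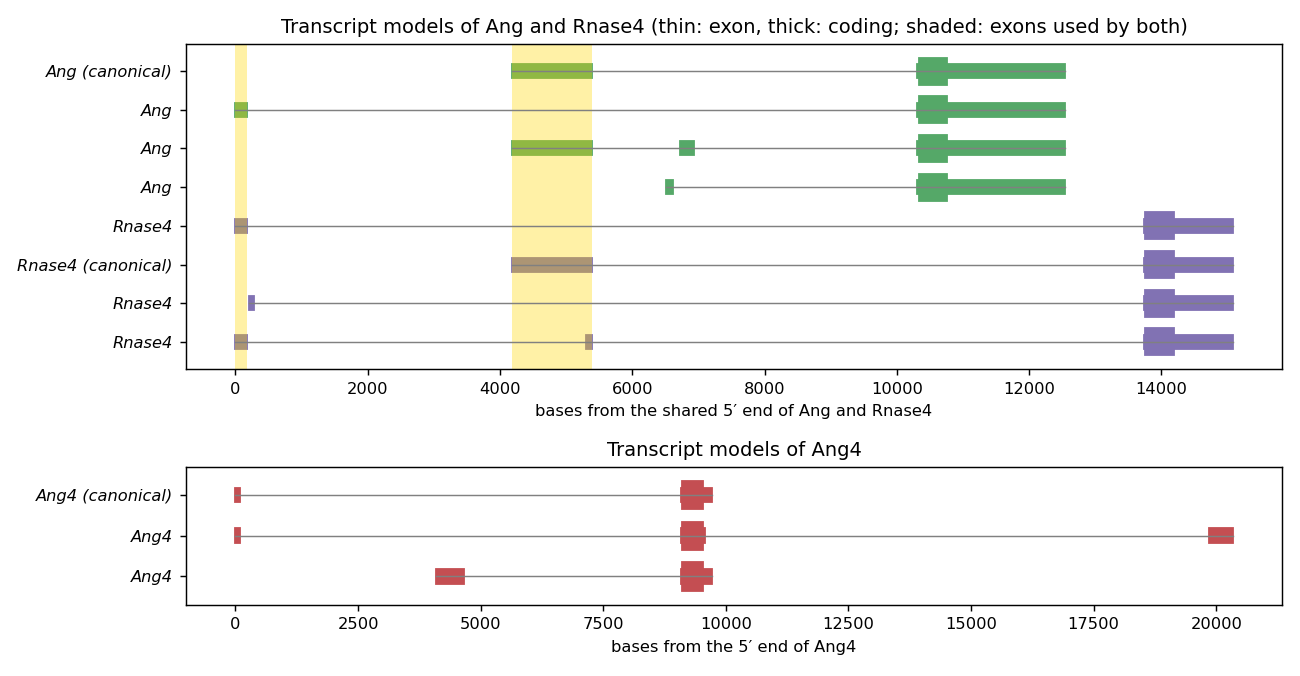
Transcript models of Ang and Rnase4 (upper panel) and Ang4 (lower panel), plotted as the distance in bases from the 5′ end of each locus, with exons as thin boxes, coding sequence as thick boxes and, in the upper panel, exons used by both genes shaded. Each gene's coding sequence lies in a single exon of its own, while the 1210-base upstream exon is part of the canonical transcripts of both Ang and Rnase4.

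The libraries held between 6139397 and 12772373 counts. A gene listed at 0 could have had up to 3 counts, or 0.235 to 0.489 CPM (counts per 1000000 counts of the library) depending on the library. These limits and the intervals below are 95% limits for counting error only. All 9 Paneth cell markers looked at, Lyz1, Mmp7, Itln1, Mptx2, Defa24, Defa30, Sox9, Xbp1 and Spdef, were counted in each library, and their sum lay between 499895 and 627066 CPM. Alpha-defensin genes took between 45.5% and 60.5% of the counts, and the TMM factors, which scale libraries by the bulk of their genes, were 1.73, 1.51 and 0.897 in the St_TNF libraries, against 1.46, 0.639 and 0.459 in the zinc depleted libraries. For this reason levels are given both per total counts (CPM) and after TMM scaling. Over the 9749 tested genes the median log2 fold change (zinc depletion minus standard) was 0.00 after TMM scaling, and total counts alone gave -0.67.

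Ang4 (ENSMUSG00000060615, chromosome 14, 51990721 to 52011053, minus strand) was one of the most abundant transcripts of the cells. It had 87700, 79869 and 135152 counts in standard diet replicates 1, 2 and 3 and 145610, 168533 and 228786 counts in zinc depleted replicates 1, 2 and 3. As CPM these were 11950, 13009 and 13546 on standard chow, against 14572, 22683 and 17913 on zinc depleted chow. All 3 zinc depleted libraries lay above all 3 standard diet libraries on this scale. The Wilson interval of the lowest value reached from 11872 to 12029 CPM and that of the highest from 22576 to 22790 CPM, so the spread between libraries was far wider than counting error. Ang4 was 9th or 10th among all genes in every library, by CPM as well as by counts per kilobase of canonical transcript scaled to 1000000 per library.

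Over the 6 libraries Ang4 had a mean of 13781 ± 2792 (SD, n = 6) counts per kilobase (scaled as above). Its neighbours in that order were Itln1, an intelectin gene, at 29943 ± 9317, Defa29, an alpha-defensin gene, at 13275 ± 1191 and Mptx2, a mucosal pentraxin gene, at 10031 ± 4056 (SD, n = 6 each). The ranges of Ang4 (11454 to 18933), Defa29 (11963 to 15281) and Mptx2 (6612 to 15499) overlapped over the 6 libraries. The lowest library of Itln1 (17722) also lay below the highest library of Ang4. Within each library, however, Itln1 was above Ang4 in CPM, for example 35482 against 17913 in zinc depleted replicate 3. Mptx2 was below Ang4 in CPM in every library except zinc depleted replicate 3 (20655 against 17913).

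Among the 4 ribonucleases Ang4 made up nearly all of the counts. Its percentage of their sum was 93.3, 93.2 and 96.6 in the St_TNF libraries, against 94.6, 98.0 and 97.6 in the zinc depleted libraries. Per kilobase of transcript it ranged from 96.5% to 99.3%. Ang4 exceeded Rnase1 by 36.8-fold to 392-fold, Rnase4 by 101-fold to 228-fold and Ang by 789-fold to 4016-fold per kilobase. The dominance of Ang4 was thus present in each of the 6 libraries, with either diet.

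**Figure D2:**
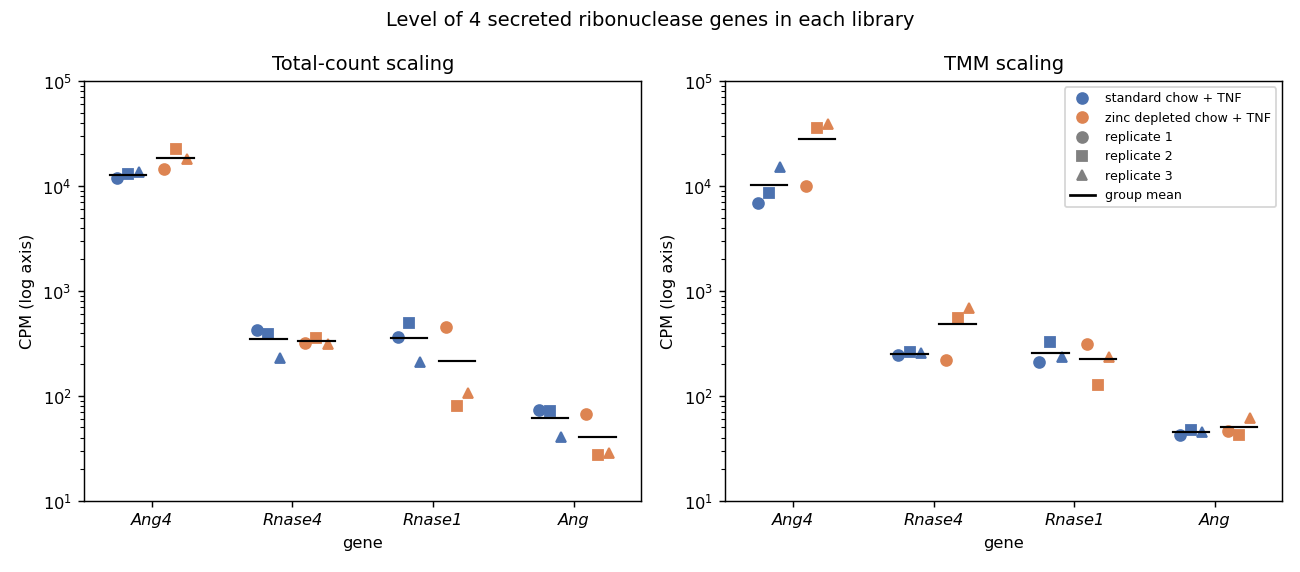
Level of Ang4, Rnase4, Rnase1 and Ang in each of the 6 libraries as CPM on a log axis, scaled by total counts (left) and by TMM (right), with symbols for replicates, colours for diets and a line at each group mean. Ang4 lies at or above 6911 CPM in every library on both scales, the other genes stay below 700 CPM, and the diets separate for Ang4 with total counts and overlap with TMM.

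Below Ang4, the order depended on the library. The means per kilobase on that scale were 190 ± 127 for Rnase1, 85.4 ± 22.0 for Rnase4 and 9.77 ± 4.75 for Ang (SD, n = 6 each). Rnase1 was above Rnase4 per kilobase in all 3 standard diet libraries, by 2.20-fold, 3.22-fold and 2.37-fold, and in zinc depleted replicate 1, by 3.61-fold. In zinc depleted replicates 2 and 3 the ratio was 0.580 and 0.870, so the order of Rnase1 and Rnase4 was not fixed. With only the exon bases that Ang and Rnase4 do not share, these ratios ranged from 0.322 to 2.00. Ang was the lowest of the 4 in every library, with Rnase4 6.45-fold to 17.6-fold above it per kilobase.

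To compare the diets, edgeR was run on all 9749 genes that passed the filter. None of the 4 ribonucleases had an adjusted p under 0.05, where 0.0% of all tested genes did. At an unadjusted p under 0.05 there was also none of the 4 with edgeR, against 6.62% of all genes. DESeq2 gave 2 of the 4 at that level, Ang4 and Rnase4, against 5.24% of its 17776 genes. These were not filtered for low counts, so this share and that of edgeR cover unlike sets of genes. After adjustment DESeq2 called none of the 4. Of the 4 genes, 3 had a log2 fold change above 0 with TMM, as did 50.0% of all genes. With total counts 1 of the 4, Ang4, had one, as did 13.1% of all genes. The p-values set the difference between the diets against the spread between these libraries.

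Ang4 had the largest log2 fold change of the 4, 1.46 (SE 0.71), which did not pass the threshold (edgeR adjusted p 0.681, unadjusted p 0.0647). After TMM scaling it had 6911, 8638 and 15096 CPM on standard chow, against 9995, 35492 and 39008 CPM on zinc depleted chow. On this scale the diets overlapped, because zinc depleted replicate 1 lay below standard diet replicate 3. With total counts in place of TMM the log2 fold change was 0.52 (SE 0.23), with an adjusted p of 0.683 in edgeR and an unadjusted p of 0.0497, and 6.08% of all genes had an unadjusted p under 0.05 in that fit. DESeq2 gave 1.47 (SE 0.50) with an adjusted p of 0.322. In bulk samples, a change in the number of cells of a type and a change in RNA per cell cannot be told apart.

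The share of Ang4 in the library needs no model and was 1.28% ± 0.08 (SD, n = 3) on standard chow, against 1.84% ± 0.41 (SD, n = 3) on zinc depleted chow. The difference of 5554 CPM in means had p = 0.1 in the exact two-sided permutation test, the smallest p that 3 libraries against 3 allow, and 0.15 after adjustment over the 3 exact permutation tests made. A gap between the diets with zinc depletion above was seen for 0.554% of the tested genes in CPM and for 3.53% after TMM scaling. Ang4 belonged to the former only. A gap with zinc depletion below was seen for 10.3% of the tested genes in CPM, and its share after TMM scaling was not counted. Without zinc depleted replicate 2 the difference was 3408 CPM. With alpha-defensin counts left out of the library total the difference was 15821 per 1000000 counts (p = 0.2, exact permutation test).

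Ang4 was also set against other products of Paneth cells, since a ratio within a library does not depend on scaling. The list had 10 Paneth cell products, Lyz1, Mmp7, Itln1, Mptx2, Defa24, Defa30, Reg3g, Reg3b, Pnliprp2 and Habp2. There were 2.37, 2.47 and 2.26 Ang4 counts per 100 counts of these genes on standard chow, against 2.698, 3.69 and 2.84 on zinc depleted chow. The diets did not overlap, and the mean log2 ratio was 0.36 higher with zinc depletion (p = 0.1, exact two-sided permutation test, the smallest possible, and 0.15 adjusted over 3 tests). How many of all tested genes would separate on such a ratio was not counted. Without zinc depleted replicate 2 this difference was 0.23. Against Lyz1 alone, the lysozyme gene, there were 9.996, 8.74 and 8.36 Ang4 counts per 100 on standard chow, against 9.30, 11.8 and 10.4 on zinc depleted chow. These values overlapped, and the difference in mean log2 ratio was 0.22 (p = 0.2, exact permutation test).

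The share of Ang4 within the 4 genes was 94.3% ± 1.94 on standard chow, against 96.7% ± 1.87 on zinc depleted chow (SD, n = 3 each). The difference of 2.36 percentage points was of the size of the SDs (exact permutation test, two-sided, p = 0.2). Per kilobase of transcript the difference was 1.29 percentage points, and the groups overlapped, since standard diet replicate 3 lay above zinc depleted replicate 1 on both measures.

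**Figure D3:**
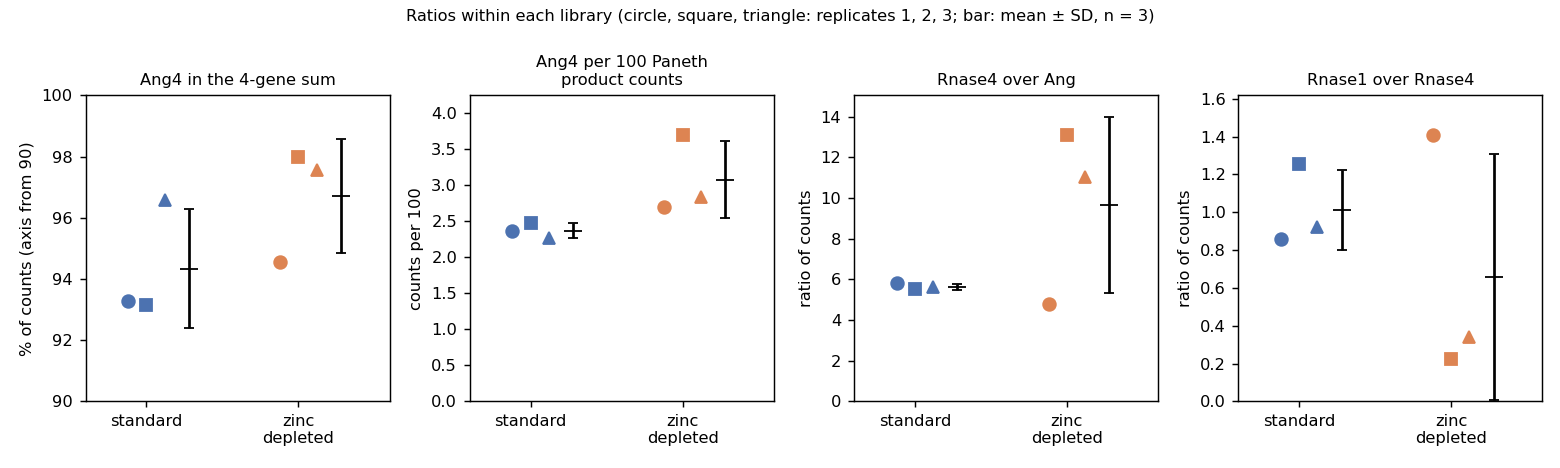
Ratios within each library by diet: Ang4 as a percentage of the counts of the 4 genes (axis from 90), Ang4 counts per 100 counts of 10 Paneth cell products, Rnase4 over Ang and Rnase1 over Rnase4 in counts, with symbols for replicates and bars for mean ± SD (n = 3). The diets separate in the Ang4 to Paneth product ratio (2.26 to 2.47 against 2.698 to 3.69) and overlap in the other panels, where zinc depleted replicate 1 lies apart from zinc depleted replicates 2 and 3. The share of all tested genes that separate on such a ratio was not counted.

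Rnase4 (ENSMUSG00000021876, chromosome 14, 51328534 to 51343608, plus strand) had 3107, 2409 and 2276 counts on standard chow, against 3199, 2645 and 4007 counts on zinc depleted chow. As CPM these were 423, 392 and 228 on standard chow, against 320, 356 and 314 on zinc depleted chow. The diets overlapped fully on this scale, with the highest and the lowest library both in the standard diet group. After TMM scaling the standard diet libraries lay close together at 245, 261 and 254 CPM, and the zinc depleted libraries had 220, 557 and 683 CPM. Zinc depleted replicates 2 and 3 stood above all other libraries and zinc depleted replicate 1 below them. The log2 fold change of Rnase4 was 0.94 with an SE of 0.48 (edgeR, adjusted p 0.681). It was -0.08 (SE 0.37) with total counts.

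Ang (ENSMUSG00000072115, chromosome 14, 51328534 to 51341074, plus strand) had 535, 436 and 406 counts on standard chow, against 668, 202 and 363 counts on zinc depleted chow. Its CPM were 72.9, 71.0 and 40.7 on standard chow, against 66.9, 27.2 and 28.4 on zinc depleted chow. The diets overlapped, with zinc depleted replicate 1 close to standard diet replicates 1 and 2. After TMM scaling Ang had the narrowest range of the 4 genes, from 42.2 to 61.9 CPM. Its log2 fold change was 0.16 with an SE of 0.35 (edgeR, adjusted p 0.901). It was -0.59 (SE 0.53) with total counts.

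Rnase4 and Ang share upstream exons, and their ratio was therefore looked at in each library. There were 5.81, 5.53 and 5.61 Rnase4 counts per Ang count in the standard diet libraries. In the zinc depleted libraries there were 4.79, 13.1 and 11.04. The 3 standard diet libraries thus held nearly the same ratio (5.65 ± 0.15, SD, n = 3), whereas the zinc depleted libraries lay on both sides of it (9.64 ± 4.33, SD, n = 3). This ratio was chosen after its values were seen, and its difference between the diets was not tested. How reads in the shared exons were counted bears on this ratio and was not tested.

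Rnase1 (ENSMUSG00000035896, chromosome 14, 51382455 to 51384247, minus strand) varied most between libraries in total counts. It had 2666, 3025 and 2101 counts on standard chow, against 4500, 599 and 1361 counts on zinc depleted chow. Its CPM were 363, 493 and 211 on standard chow, against 450, 80.6 and 107 on zinc depleted chow, a 6.11-fold range. Standard diet replicates 1 and 2 and zinc depleted replicate 1 were high, which are the libraries with TMM factors of 1.73, 1.51 and 1.46, and the libraries with lower factors were low. After TMM scaling the range was 2.59-fold, from 126 to 327 CPM, with the highest value in standard diet replicate 2 and the lowest in zinc depleted replicate 2. The log2 fold change of Rnase1 was -0.21 with an SE of 0.45 (edgeR, adjusted p 0.896). It was -0.74 (SE 0.67) with total counts. It became 0.11 without zinc depleted replicate 2 and was -0.51 without zinc depleted replicate 1, so no direction can be given.

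Markers of other cell types that the samples could hold were counted as well. Of 9 pancreatic acinar markers 8 had 0 counts in all libraries, and the sum of the list was at most 0.1002 CPM with either diet. Of 6 endothelial markers Cdh5, Kdr and Tie1 were at 0, and the sum was 1.203 to 2.18 CPM on standard chow, against 1.08 to 1.601 CPM on zinc depleted chow. The 7 goblet cell markers were all counted. Their sum was 9010, 7639 and 8052 CPM on standard chow, against 12746, 6372 and 5866 CPM on zinc depleted chow, and zinc depleted replicate 1 was the highest. Muc2, a mucin gene, made up 4532 CPM of the sum in that library and between 130 and 1445 CPM elsewhere. Spink4 made up more of the sum than Muc2 in every library, with 6393 CPM in that library and 4025 to 6560 CPM elsewhere. Of the 7 markers only Muc2 and Clca1 were highest there, while Fcgbp, Zg16, Tff3, Spink4 and Agr2 were each highest in another library. Without Muc2, left out after its values were seen, the sum was 8214 CPM in zinc depleted replicate 1 and 5735 to 7735 CPM in the others. The 5 tuft cell markers were highest in standard diet replicate 2 with 663 CPM, against 21.7 to 175 CPM elsewhere. Enterocyte markers (8 genes) summed to 33.0 to 194 CPM on standard chow, against 25.8 to 29.4 CPM on zinc depleted chow. Enteroendocrine markers (7 genes) summed to 43.2 to 82.6 CPM and 27.4 to 39.7 CPM, and stem cell markers (4 genes) to 1172 to 3567 CPM and 472 to 565 CPM. Immune markers (7 genes, Cd3e at 0) summed to 73.6 to 157 CPM and 66.3 to 91.0 CPM. All these sums are per total counts. After TMM scaling the diets overlapped for stem cell markers, with 901 to 2063 CPM on standard and 387 to 1163 CPM on zinc depleted chow. They also overlapped for enterocyte markers (36.75 to 128.5 and 17.71 to 64.11 CPM) and enteroendocrine markers (39.25 to 54.83 and 18.81 to 86.44 CPM). The part of these cells in the levels of the ribonucleases was not tested.

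**Figure D4:**
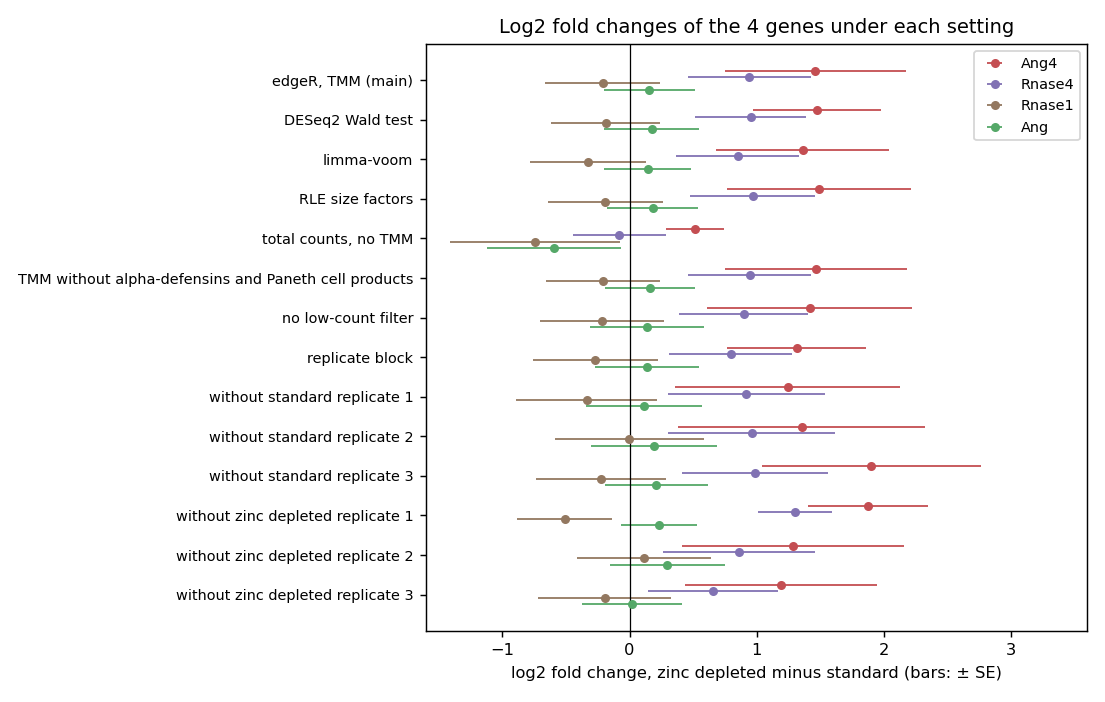
Log2 fold change (zinc depleted minus standard) of Ang4, Rnase4, Rnase1 and Ang with its standard error under the main edgeR fit and each alternative, 1 row per setting. Ang4 lies above 0 in all rows, between 0.52 and 1.90, Rnase4 drops to -0.08 with total counts, and Rnase1 (-0.74 to 0.11) and Ang (-0.59 to 0.30) take both signs.

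The standard errors of Ang4 and Rnase4 depended on zinc depleted replicate 1. Without it, the log2 fold change of Ang4 was 1.87 (SE 0.47) and that of Rnase4 was 1.30 (SE 0.29), both with an adjusted p of 0.117 in edgeR. Both had an unadjusted p under 0.05 there, as did 24.2% of all genes tested in that fit. Without standard diet replicate 3 the log2 fold change of Ang4 was 1.90 (SE 0.86, edgeR adjusted p 0.329). With total counts, zinc depleted replicate 1 had the highest goblet cell marker sum, by a smaller margin without Muc2, as given above. After TMM scaling its sum of 8742 CPM was the lowest of the zinc depleted libraries, which reached 12775 CPM. The standard diet libraries had 5072 to 8973 CPM on that scale. The part of goblet cells in the values of Ang4 and Rnase4 was not tested.

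The rest of the family had few or no counts. Of 21 further family genes looked for by symbol, 16 were in the table and 11 of these had 0 counts in all libraries, among them Ear1, Ear2, Ear6, Ear10 and Ear14 of the eosinophil-associated group and the tissue-restricted Rnase9, Rnase10, Rnase11 and Rnase13. None passed the filter. All 16 together had 30 counts in the 6 libraries, against 845650 for Ang4. Rnase12 had the most, with 1, 3 and 7 counts on standard chow, against 0, 0 and 2 counts on zinc depleted chow. The angiogenins most like Ang4 in sequence stayed at the floor, with 2 counts in all for Ang2, 6 for Ang5 and 6 for Ang6. Which stretches of the 16 genes are specific was not examined, and what became of ambiguous reads is not given. A low count of these genes therefore need not mean that their RNA was absent. Of 5 markers of eosinophils, the cells that the Ear genes are named for, Epx, Prg2, Ccr3 and Il5ra were at 0. The sum, which came from Siglecf alone, was 1.503 to 23.3 CPM on standard chow, against 1.57 to 4.403 CPM on zinc depleted chow. Its highest value was in standard diet replicate 2, which also had the highest tuft cell marker sum.

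The list of partners held 4 genes, and none was called. With TMM 3 of the 4 had a log2 fold change above 0 (median 0.10), and with total counts 1 of the 4 did (median -0.27). Rnh1, which encodes the cytosolic inhibitor that binds enzymes of this family, had 64.7, 62.7 and 54.2 CPM on standard chow, against 75.1, 63.3 and 53.8 CPM on zinc depleted chow. The diets overlapped, and its log2 fold change was 0.94 with an SE of 0.43 (edgeR, adjusted p 0.681). It was 0.08 with total counts. Plxnb2, which encodes a plexin described as a receptor for angiogenin, had 79.8 ± 28.5 CPM on standard chow, against 66.2 ± 77.2 CPM on zinc depleted chow (SD, n = 3 each), with 155 CPM in zinc depleted replicate 1. Its log2 fold change was 0.06 (SE 0.49), and -0.27 with total counts. Egfr, the receptor of epidermal growth factor, had 10.3 ± 2.89 and 8.501 ± 9.13 CPM, and its log2 fold change of 0.14 turned to -0.28 with total counts. Sdc4, a cell surface proteoglycan gene, had 54.0 ± 33.2 and 16.3 ± 5.09 CPM, with -0.72 as the log2 fold change (SE 0.46, edgeR adjusted p 0.694) and -1.73 with total counts.

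Ribonucleases outside this family, most of which work inside cells, were listed for comparison. Of 13 listed genes 9 were tested and none was called, with 3 higher and 6 lower with zinc depletion and a median log2 fold change of -0.23 (0.00 for all genes). With total counts 2 were higher and the median was -0.75 (-0.67 for all genes). In CPM, 2 of the 9, Rnaseh2a and Rnaseh2c, had all zinc depleted libraries below all standard diet libraries, as did 10.3% of the tested genes. Rnaseh2a, a subunit of ribonuclease H2, had 15.2 ± 6.85 CPM on standard chow, against 6.24 ± 1.38 CPM on zinc depleted chow. Zc3h12a, which encodes Regnase-1, an endonuclease that degrades mRNAs of inflammation, had the largest log2 fold change of the list, 1.66 (SE 0.57, edgeR adjusted p 0.681). It had 584 counts in zinc depleted replicate 1, against 78 and 132 in the other zinc depleted libraries and 46 to 145 with standard diet. Ern1, the endoribonuclease sensor of the unfolded protein response, had 42.3 ± 18.4 and 31.8 ± 38.2 CPM and a log2 fold change of -0.05 (SE 0.48). The other tested genes were Rnaseh1, Rnaseh2b, Dicer1, Drosha and Elac2, with log2 fold changes from -0.88 (Drosha) to 1.08 (Rnaseh1). Rnaset2a had 0 counts, and Rnaset2b, Rnasek and Endou had at most 2 counts in any library. Whether reads of these genes can be told apart from those of other genes was not examined, so their RNA need not be absent.

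The 10 Paneth cell products were compared with Ang4 on the same scales. All 10 were tested, none was called, and all 10 had a log2 fold change above 0 with TMM, with a median of 1.19. With total counts 6 of the 10 did, with a median of 0.26, against 0.52 for Ang4. Like Ang4, Reg3g and Reg3b, which encode lectins that act on bacteria, had CPM without overlap between the diets. These were 2 of the 10 products, where 0.554% of all tested genes had such a gap with zinc depletion above. A gap with zinc depletion below was seen for 10.3% of all tested genes. Reg3g had 1768, 1661 and 1618 CPM on standard chow, against 2006, 2826 and 3116 CPM on zinc depleted chow. Reg3b had 223, 286 and 211 CPM on standard chow, against 359, 336 and 565 CPM on zinc depleted chow. The other 8 products, among them the more abundant Lyz1, Itln1, Defa24 and Defa30, overlapped.

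The genes whose pattern was most like that of Ang4 were sought by the Pearson correlation of log2 CPM after TMM over the 6 libraries, given here as a description. They were Tff3 (r = 0.999), a trefoil peptide gene that is also among the goblet cell markers above, and Serpinb6a (0.999), a protease inhibitor gene. The others were Ndfip1 (0.998), an adaptor gene for ubiquitin ligases, Rap1a (0.997), a small GTPase gene, and Puf60 (0.997), a splicing factor gene. A correlation of at least 0.95 was reached by 342 genes with TMM and by 3 with total counts, and all genes of a library share its scaling factor. With total counts the values of the 5 genes ranged from 0.845 for Serpinb6a to -0.756 for Puf60. The 3 genes above 0.95 there, named after their values were seen, were Zfp593 (0.983), a zinc finger gene, S100a6 (0.973), a calcium-binding protein gene, and the alpha-defensin gene Defa21 (0.953). Defa21 had 20743, 22996 and 31626 CPM on standard chow, against 32085, 52002 and 40804 CPM on zinc depleted chow, and in both genes zinc depleted replicate 2 was the highest and standard diet replicate 1 the lowest library. Among the 4 ribonucleases, Ang4 and Rnase4 had r = 0.931 with TMM and -0.08 with total counts, and Ang and Rnase1 had 0.274 with TMM and 0.977 with total counts.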

How the data were processed

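RNA-seq libraries of FACS-sorted Paneth cells from 3 mice on standard and 3 on zinc depleted chow, all given TNF, were used. The authors deposited raw read counts per Ensembl gene. The submitters' processing notes name FastQC, Trimmomatic 0.39, STAR 2.7.10a, DESeq2 and mm39. Which program counted the reads, whether strand was used and what became of ambiguous reads is not given in the sources used here. Symbols, positions and canonical transcript lengths came from GENCODE M39 on GRCm39, where 54749 of 55414 identifiers were found (the rest held at most 0.00479% of counts). That replicates are separate mice is taken from the study's general methods.

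Diets were compared by edgeR 4.0.16 with its quasi-likelihood F test (R 4.3.3), using TMM, filterByExpr and diet as the only term. P-values were two-sided and adjusted by Benjamini-Hochberg over all 9749 tested genes, with a threshold of 0.05. The SE of a log2 fold change was its size divided by the square root of F. Log2 CPM used a prior count of 2. Single values were compared by exact two-sided permutation tests (SciPy 1.17.1). Intervals of shares are Wilson 95% intervals, and reads without molecular identifiers make them cover counting error only. Counts per kilobase used the canonical transcript. Identity between genes was counted over aligned positions without gaps, with Biopython 1.88, and residues were translated from GRCm39 coding sequence. The procedure was tested on simulated data whose changes were larger than those found for the 4 genes. How often changes of their size would be called was not tested. No 2 libraries of a group agreed within sampling noise (chi-square per degree of freedom of at least 15.3).

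The text names the 4 genes, the members of 3 lists (other family genes, partners, other ribonucleases) with at least 10 counts or tested, 10 Paneth cell products and the 5 genes most correlated with Ang4. Other names were chosen after their values were seen. An item of these lists is not reported here and was left out of its list's counts. The members and lists were chosen with earlier results of these data known. Alternatives were DESeq2 1.42.0, limma-voom (limma 3.58.1), RLE factors, total counts, TMM without alpha-defensins and Paneth cell products, no filter, the replicate number as a block, other denominators or lengths, and each library left out.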

Additional observations from a re-analysis of the deposited data

How the results depend on the processing

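None of the 4 ribonucleases was called by edgeR, DESeq2 or limma-voom under any alternative. The number of genes called with an adjusted p under 0.05 was 0 in the main edgeR fit, 9 with DESeq2 and 76 without the low-count filter. DESeq2 gave an unadjusted p for 17776 genes and the fit without the filter for 17790, against 9749 in the main fit. DESeq2 adjusted with its default filter on mean counts, so its adjusted p-values may cover fewer genes. With 1 library left out between 0 and 28 were called. The 28 came without standard diet replicate 3, where 1553 genes had an unadjusted p under 0.05 in edgeR. With all 6 libraries 645 genes had an unadjusted p under 0.05 in the main fit of edgeR, 931 with DESeq2 and 625 with limma-voom. The cause was not tested. Ang4 kept its direction in all 13 alternatives, with log2 fold changes from 0.52 to 1.90 and adjusted p from 0.117 to 1.00. Total counts turned the direction of Ang (-0.59) and Rnase4 (-0.079), which comes from the scaling itself. Leaving out 1 library gave -0.51 to 0.11 for Rnase1, 0.02 to 0.30 for Ang and 0.65 to 1.30 for Rnase4. The share tests of Ang4 kept their direction in all alternatives, and 2 libraries against 3 cannot reach a p under 0.2. With exon bases not shared by Ang and Rnase4, an alternative chosen after seeing the data, the difference in the share of Ang4 was 1.48 percentage points.

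With the replicate number as a block edgeR called 0 genes, and 962 of the 9749 tested genes had an unadjusted p under 0.05. Of the 4 ribonucleases only Ang4 was among them (log2 fold change 1.31, edgeR unadjusted p 0.0287, adjusted p 0.451). The log2 fold change was 0.79 for Rnase4, 0.14 for Ang and -0.27 for Rnase1. Deviations of same-numbered libraries correlated at 0.147, -0.0584 and 0.248. Standard diet replicates 1 and 3 correlated best with the zinc depleted library of their own number, and standard diet replicate 2 with zinc depleted replicate 1 (0.25). These values do not settle whether the numbers pair the libraries, and the main fit did not pair them. Genes with few counts, such as Ang2, Ang5 and Ang6, cannot be compared at this depth.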
